A study of Mus musculus with 4 samples.

Results

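Long noncoding RNAs are transcripts that carry no long protein-coding frame, and 5 of them are described here: Malat1, Neat1, Kcnq1ot1, Gas5 and Snhg12. They were chosen by name, by matching the gene symbol of each row in the count tables, and all 5 were found among 55367 gene rows. Of these rows, 12413 carry a long noncoding annotation. RNA was measured in 4 mouse libraries of polyadenylated RNA, 2 titled WT and 2 titled KO, prepared from cells of B16-F10 melanoma tumors (a transplantable mouse line) that had been sorted as CD45.2+CD8+, the surface type of cytotoxic T cells of blood origin. The series concerns lymphocytes that infiltrate tumors and Satb1, which folds T cell chromatin into loops. Its design text names WT mice and mice with floxed Satb1 alleles deleted by ThPOK-cre or by E8I-cre, drivers of Cre recombinase in T cells, but no label ties the KO libraries to either driver. The study describes its mice as young adults of mixed sexes, but no label gives the age, sex or treatment of the animals behind a library or their number, so that the p-values below measure only the spread between these libraries.

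Malat1 and Neat1 are neighboring genes whose RNAs stay in the nucleus. Malat1 RNA gathers in nuclear speckles, which hold splicing factors, and the long form of Neat1 is the scaffold of paraspeckles, bodies built around proteins such as Nono and Sfpq. Malat1 and the long form of Neat1 are cut at their 3' end by RNase P, which leaves a triple helix of U-rich runs around an A-rich run in place of a poly(A) tail. Kcnq1ot1 is an unspliced RNA read from within the Kcnq1 gene on the opposite strand, and it silences neighboring genes on the paternal chromosome. Gas5 and Snhg12 are host genes, whose introns are processed into small nucleolar RNAs (snoRNAs) that guide chemical modification of ribosomal RNA. Their spliced exons enter the cytoplasm, where ribosomes engage short frames and nonsense-mediated decay removes the RNA, and Gas5 starts with a pyrimidine-rich tract of the type called TOP, which ties translation to growth signals. The comparison of nuclear-retained RNAs with such host transcripts was the question put to the 5 genes.

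The positions are those of GENCODE M21 on GRCm38/mm10. Malat1 (ENSMUSG00000092341.3) lies at chr19:5795690-5802672 on the minus strand as 1 exon of 6983 bases. Neat1 (ENSMUSG00000092274.3) lies beside it at chr19:5824708-5845478 on the same strand, with a short form of 3004 bases and a long form of 20771 bases. Kcnq1ot1 (ENSMUSG00000101609.2) covers chr7:143203458-143296549 on the minus strand as 1 exon of 93092 bases. Gas5 (ENSMUSG00000053332.13) lies at chr1:161034422-161038539 on the plus strand with 25 annotated transcripts, the main one of 12 exons and 502 bases. Snhg12 (ENSMUSG00000086290.9) lies at chr4:132308623-132311024 on the plus strand with 10 transcripts, the main one of 4 exons and 935 bases.

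The 3' ends matter because polyadenylated RNA was sequenced. The 90 bases that end at the RNase P side of Malat1 (chr19:5795982-5796071, minus strand) and of the long form of Neat1 (chr19:5824708-5824797, minus strand) are shown with the U-rich runs and the A-rich end in capitals, in genomic letters.
Malat1: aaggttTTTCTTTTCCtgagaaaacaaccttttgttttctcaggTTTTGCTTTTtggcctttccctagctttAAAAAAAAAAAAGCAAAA
Neat1 long form: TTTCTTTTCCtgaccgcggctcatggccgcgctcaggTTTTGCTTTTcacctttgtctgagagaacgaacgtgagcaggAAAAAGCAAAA
The run of A before the closing GCAAAA had 12 bases in Malat1 and 5 bases in Neat1. The annotated Malat1 transcript continued for 292 bases beyond this point, whereas the long form of Neat1 ended there. The last 60 bases of the main transcripts were compared for a signal for polyadenylation, shown in capitals.
Malat1 full length: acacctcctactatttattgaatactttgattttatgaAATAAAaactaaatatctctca
Neat1 short form: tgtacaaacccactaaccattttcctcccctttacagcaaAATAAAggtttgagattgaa
Kcnq1ot1: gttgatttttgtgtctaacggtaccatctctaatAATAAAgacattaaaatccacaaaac
Gas5: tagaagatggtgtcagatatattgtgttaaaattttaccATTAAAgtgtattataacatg
Snhg12: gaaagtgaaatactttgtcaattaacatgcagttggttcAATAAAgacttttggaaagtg
AATAAA, searched on the transcript strand in the last 50 bases, was present in Malat1, the short form of Neat1, Kcnq1ot1 and Snhg12, and in 26.6% of 141767 annotated transcripts. Gas5 held the variant ATTAAA, which was found in 8.62% of transcripts. The long form of Neat1 held neither.

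The starts of the host genes are shown from 50 bases before to 30 bases from the RefSeq start site (GRCm38.p6), with the pyrimidine run over base 1 and the letters TATATA in capitals, and Malat1 is given for comparison.
Gas5 (chr1:161035116-161035195, plus strand): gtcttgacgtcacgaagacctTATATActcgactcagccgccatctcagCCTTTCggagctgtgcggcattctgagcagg
Snhg12 (chr4:132308628-132308707, plus strand): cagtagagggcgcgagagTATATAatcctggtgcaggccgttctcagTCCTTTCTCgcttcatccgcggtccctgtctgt
Malat1 (chr19:5802643-5802722, minus strand): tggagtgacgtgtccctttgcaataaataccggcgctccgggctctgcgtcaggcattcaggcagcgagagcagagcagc
The run of pyrimidines over base 1 was 6 bases long in Gas5, 9 in Snhg12 and 2 in Malat1. A run of at least 5 was present in 3330 of 32851 promoter windows (10.1%) and in 6 of 16 noncoding snoRNA host genes with a window (37.5%). TATATA, searched on the transcript strand in the 50 bases before the start after it had been seen in these sequences, was present in 444 of all windows (1.35%) and in 2 of the 16 host genes, which were Gas5 and Snhg12. Among annotated transcripts, 5 of 25 from Gas5 and 3 of 10 from Snhg12 began with C and 4 further pyrimidines, against 2.02% of all transcripts and 0 of those from Malat1, Neat1 and Kcnq1ot1.

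The libraries held 4017875 to 5382915 reads on genes. Satb1 was higher in the libraries labeled KO, with counts of 7 (WT 1), 5 (WT 2), 131 (KO 1) and 55 (KO 2) (log2 fold change 3.36, SE 0.79, adjusted p = 0.115). These counts do not show a deletion, and the group names are used as labels only. The log2 fold changes of T cell markers were 3.10 to 4.89. Whether T cell content or the driver had a part in the Satb1 counts was not tested. All 10 T cell markers were higher in KO and 9 passed the test, against 0.574% of all genes tested (4 without WT 1, where 0.862% of all genes passed), led by Lck, Cd8a, Cd3e, Cd3d and Trbc2, with counts of 24 and 28 in WT and 843 and 733 in KO for Cd8a. Their summed level was 67.2 and 106 CPM (counts scaled to the same total of gene reads in each library) in WT and 2437 and 1233 in KO. Macrophage markers, which the sort would not select, summed to 30604 and 41140 CPM in WT and 23957 and 31036 in KO. Of these 13 markers, 10 were lower in KO, 8 of 13 being lower without overlap of the groups (22.6% of all genes tested), and 0 passed the threshold (8 as lower without KO 2, where 9.72% of all genes passed), with a median log2 fold change of -1.20. Dendritic cell markers summed to 24365 and 41527 CPM in WT and 28651 and 22217 in KO, with 0 of 6 past the threshold. Melanoma markers summed to 226 and 268 CPM in WT and 2395 and 1315 in KO (1 of 8 past the threshold, which was Tyrp1, 0 without WT 1, 4 without KO 1, where 0.998% of all genes passed, and 8 without KO 2), and markers of fibroblasts or endothelium to 20.7 and 19.2 CPM in WT and 1355 and 198 in KO (3 of 4, the collagen genes Col1a1, Col1a2 and Col3a1). Markers of neutrophils, B cells, NK cells and erythroid cells had 1, 2, 0 and 1 genes tested, with 0 past the threshold in the fit of all 4 libraries. Here and below, the overlap of groups and the highest library are counted on normalized CPM, which also carries the scaling factors of edgeR, unless CPM is named. In bulk RNA, fewer cells of a type and less RNA per cell cannot be told apart. KO 1 also stood apart from the other libraries in mitochondrial reads (1.05% of gene reads against 0.297% to 0.522%), in reads of ribosomal protein genes (5.73% against 2.31% to 3.29%) and in genes detected (18655 against 15684 to 16656).

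Malat1 was the member with the most reads and the steadiest of the 5. Its counts were 1097 and 1058 in WT and 1679 and 2226 in KO, which correspond to 273 and 248.3 CPM in WT and 374.8 and 413.5 CPM in KO. After scaling by the library factors of edgeR, the levels were 328 and 261 normalized CPM in WT and 318 and 387 in KO, so that the groups overlapped on the normalized scale and did not overlap on the scale of gene totals. On that scale, non-overlap with KO higher was found for 35.9% of all genes tested. The means were 294 ± 47.6 (SD, n = 2) and 352 ± 48.6 (SD, n = 2) normalized CPM, with a log2 fold change of 0.26 (SE 0.45, 95% interval -0.75 to 1.26) and an adjusted p of 0.832 by the quasi-likelihood test of edgeR. The highest normalized level was 1.48 times the lowest, and 92.2% of the 11837 genes tested varied more across the 4 libraries than Malat1.

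**Figure D1:**
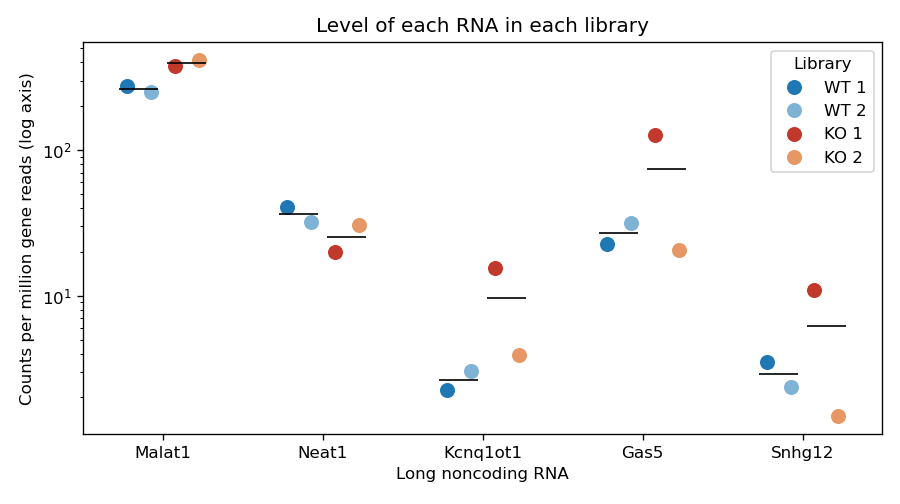
Points show the level of each long noncoding RNA in each of the 4 libraries, in CPM on a log axis, and black lines show the mean of the 2 libraries of a group. Gas5, Kcnq1ot1 and Snhg12 were highest in KO 1, whereas Neat1 was lowest there.

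Neat1 was the member that was lower in both libraries labeled KO. Its counts were 164 and 136 in WT and 90 and 165 in KO, or 49.0 and 33.5 normalized CPM in WT and 17.0 and 28.6 in KO. The 2 groups did not overlap, but the nearest libraries, WT 2 and KO 2, were close to each other. The log2 fold change was -0.85 (SE 0.49, 95% interval -1.95 to 0.25) and the adjusted p was 0.469. Since non-overlap with KO lower was found for 22.6% of all genes tested, Neat1 did not stand apart from the background in this respect. The ratio of Malat1 to Neat1 counts was 6.69 and 7.78 in WT and 18.7 and 13.5 in KO, which is a mean of 7.23 ± 0.771 (SD, n = 2) against 16.1 ± 3.65 (SD, n = 2). The groups did not overlap in this ratio, which was picked from all ratios between members after its values were seen and was not tested. Reads of the short form and of the long form of Neat1 share the same gene row and could not be separated.

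Kcnq1ot1 had 9 and 13 counts in WT and 69 and 21 in KO, or 2.69 and 3.20 normalized CPM in WT and 13.1 and 3.65 in KO. Both libraries labeled KO were above both labeled WT, but KO 2 was only slightly above WT 2 and KO 1 was far above it. The log2 fold change was 1.49 (SE 0.84, 95% interval -0.41 to 3.39, adjusted p = 0.464), and non-overlap with KO higher was found for 25.3% of all genes tested. Without KO 1 the log2 fold change was 0.30. The gene is an imprinted one, and its host and opposite-strand partner Kcnq1, a potassium channel gene that shares 121 exonic bases with it, had 0 and 7 counts in WT and 7 and 10 in KO. Of 15 genes of the Kcnq1 imprinted domain, 9 were tested, and 3 were higher, 6 lower and 0 past the threshold, with a median log2 fold change of -0.72 against 0.05 over all genes tested. Its genes with the highest CPM were Cd81 and Tspan32, which encode tetraspanins, and Nap1l4, a histone chaperone. Cd81 had 84.6 and 396 CPM in WT and 153 and 182 in KO, Tspan32 had 54.5 and 84.5 in WT and 48.2 and 56.7 in KO, and Nap1l4 had 33.6 and 67.1 in WT and 92.0 and 88.6 in KO. Cdkn1c, an inhibitor of the cell cycle that Kcnq1ot1 silences on the paternal allele, had 18 and 7 counts in WT and 34 and 9 in KO (log2 fold change 0.18, adjusted p = 0.96), so that its groups overlapped. Slc22a18, a transporter gene of the domain, had 14 and 15 counts in WT and 2 and 5 in KO (log2 fold change -2.60, adjusted p = 0.30).

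Gas5 was the member in which KO 1 stood out most in reads. Its counts were 91 and 134 in WT and 570 and 110 in KO, or 27.2 and 33.0 normalized CPM in WT and 107.9 and 19.1 in KO. KO 1 was the highest and KO 2 the lowest of the 4 libraries, so that the group labeled KO lay on both sides of the group labeled WT. The log2 fold change was 1.07 (SE 0.70, 95% interval -0.51 to 2.66) and the adjusted p was 0.525. The direction rested on KO 1: the log2 fold change was -0.66 (adjusted p = 0.527) without KO 1 and 1.80 (adjusted p = 0.0169) without KO 2, where Gas5 passed the threshold, as did 9.72% of the 12852 genes tested in that fit.

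Snhg12 had the same highest and lowest library as Gas5. Its counts were 14 and 10 in WT and 49 and 8 in KO, or 4.19 and 2.46 normalized CPM in WT and 9.28 and 1.39 in KO. KO 1 was again the highest and KO 2 the lowest, and a count of 8 leaves the level in KO 2 imprecise. The log2 fold change was 0.68 (SE 0.98, 95% interval -1.54 to 2.90) with an adjusted p of 0.797, and it was -1.24 without KO 1.

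In all, 0 of the 5 members passed the threshold (adjusted p under 0.05 over 11837 genes), as against 68 genes or 0.574% of all genes tested, of which 65 were higher and 3 lower in KO. Leaving out a library moved that number of genes to 113 (WT 1), 228 (WT 2), 123 (KO 1) or 1249 (KO 2). By unadjusted p under 0.05, 0 members and 1619 genes passed. The smallest absolute log2 fold change past the threshold was 3.15, which is larger than that of any member, and the intervals above leave changes of 2-fold or more in either direction possible for Snhg12. With library totals in place of scaling factors, the median log2 fold change of all genes was 0.38 instead of 0.05, and those of the members were 0.60 (Malat1), -0.52 (Neat1), 1.85 (Kcnq1ot1), 1.45 (Gas5) and 1.08 (Snhg12), with no member past the threshold.

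**Figure D2:**
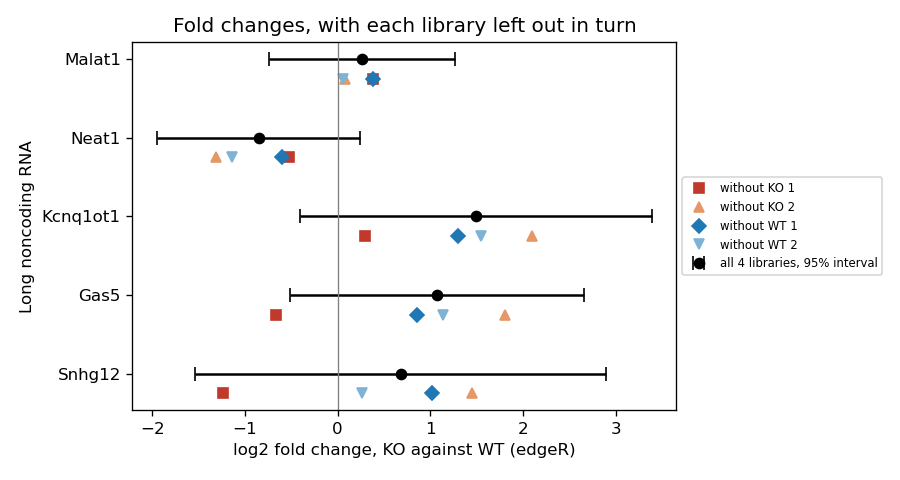
Black points show how each RNA differed between KO and WT as a log2 fold change with its 95% interval, and colored symbols show the value with 1 library left out. All 5 intervals contain 0, and the values of Gas5 and Snhg12 changed sign without KO 1, to -0.66 and -1.24.

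The 2 libraries of the group labeled KO differed in all 5 members by more than counting error. So did genes in general, with a chi-square per degree of freedom of 85.1 over 12451 genes. The ratio of KO 1 to KO 2 on gene totals was 6.23 (exact 95% counting interval 5.07 to 7.71) for Gas5, 7.36 (3.46 to 18.0) for Snhg12 and 3.95 (2.39 to 6.78) for Kcnq1ot1. It was below 1 for Neat1, at 0.655 (0.501 to 0.852), and for Malat1, at 0.906 (0.850 to 0.966). The log2 difference was also taken with its sign, as KO 1 minus KO 2. In Gas5 it was larger than that of 99.0% of all genes tested, in Snhg12 of 97.7% and in Kcnq1ot1 of 93.8%. In Malat1 (-0.28) it was larger than that of 36.5% and in Neat1 (-0.72) of 21.2%. On this scale a low share marks a lower level in KO 1 and not a small difference. The ratio of WT 1 to WT 2 lay between 0.720 and 1.49 for the 5 members, and its counting interval also left out 1 for Malat1 (1.01 to 1.20), Neat1 (1.01 to 1.62) and Gas5 (0.546 to 0.947).

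The nuclear-retained RNAs were then set against the host transcripts within each library. Malat1 had 12.1 and 7.90 counts per Gas5 count in WT and 2.95 and 20.2 in KO. The ratio of Neat1 to Gas5 was 1.80 and 1.01 in WT and 0.158 and 1.5 in KO, and that of Neat1 to Snhg12 was 11.7 and 13.6 in WT and 1.84 and 20.6 in KO. In each of these ratios KO 1 was the lowest library, and KO 2 was the highest in all but Neat1 to Gas5. Kcnq1ot1 did not follow the other nuclear RNAs, with 0.0989 and 0.0970 counts per Gas5 count in WT and 0.121 and 0.191 in KO. The mean log2(CPM + 1) of Malat1, Neat1 and Kcnq1ot1 minus that of Gas5 and Snhg12 was 1.70 and 1.63 in WT and 0.37 and 2.46 in KO. The means were 1.66 ± 0.05 (SD, n = 2) and 1.41 ± 1.47 (SD, n = 2), a difference of -0.25 that is smaller than the spread within KO and that became 0.80 without KO 1.

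**Figure D3:**
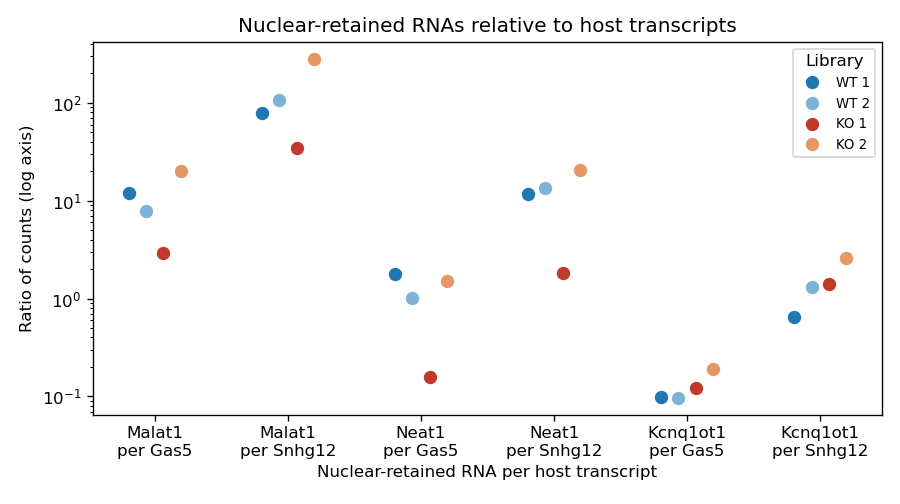
Points show, on a log axis, the ratio of counts of each nuclear-retained RNA to each host transcript in each of the 4 libraries. For Malat1 and Neat1, KO 1 had the lowest ratios, such as 2.95 for Malat1 per Gas5 against 7.90 to 20.2 in the other libraries, whereas the ratios of Kcnq1ot1 did not show this order.

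Other noncoding host genes of snoRNAs were, like Gas5 and Snhg12, highest in KO 1. Of 18 such genes in the tables, 12 were tested, Gas5 and Snhg12 among them, and all 12 were highest in KO 1 on normalized CPM and on CPM, as were 34.1% and 44.8% of all genes tested. The 18 genes summed to 85.4 and 102 CPM in WT and 402 and 71.7 CPM in KO. Snhg15 had 24 and 58 counts in WT and 249 and 82 in KO, and Zfas1, which hosts C/D box snoRNAs, had 43 and 36 in WT and 183 and 29 in KO. The largest fitted fold change of the list was that of Snhg1, with 15 and 23 counts in WT and 177 and 9 in KO (log2 fold change 1.78). None of these 3 genes passed the threshold.

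As a group, 11 of the 12 host genes were higher and 1 was lower in KO, 0 passed the threshold, and 0 had groups that did not overlap on normalized CPM (1, Snhg15, on CPM), with a median log2 fold change of 0.72. Without KO 1, 11 of 12 were lower and the median was -0.99. Without KO 2, the median of the 12 genes was 1.38. That fit tested 15 host genes, all of them higher, but its filter could admit a gene through KO 1 alone. The count of 15 is therefore no support for the direction. The median log2 difference between KO 1 and KO 2 was 1.97 for the 12 genes and 0.04 for all genes tested. Mitochondrial reads, reads of ribosomal protein genes, and the summed CPM of markers of T cells (9 of 10 genes), melanoma cells (8 of 8) and fibroblasts or endothelium (3 of 4) were also highest in KO 1, as given above, and their part in these differences was not tested.

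**Figure D4:**
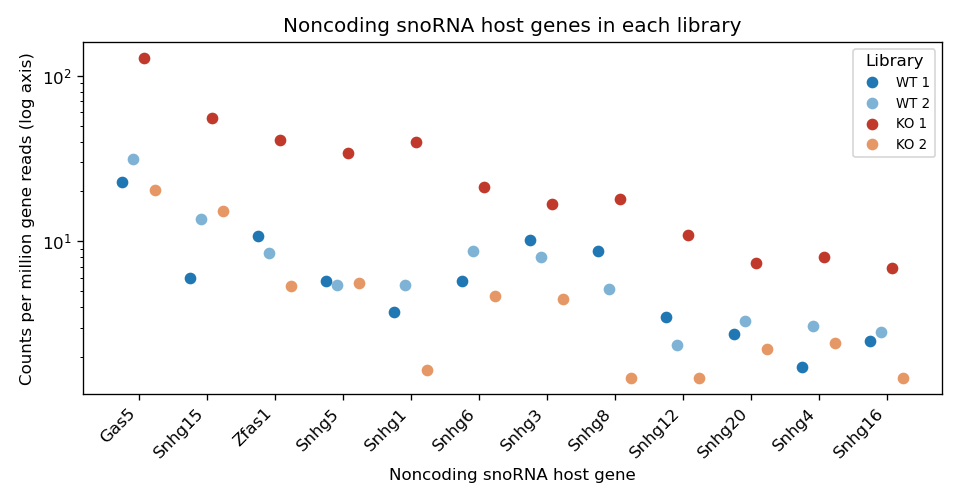
Points show the level of the 12 tested noncoding snoRNA host genes in each of the 4 libraries, in CPM on a log axis. All 12 genes were highest in KO 1, for example Gas5 at 127.2 against 20.4 to 31.4 in the other libraries.

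Protein-coding genes with TOP starts encode translation factors or host snoRNAs. Of 20 tested, 12 were higher, 8 lower and 0 past the threshold, the median log2 fold change being 0.44, and 14 were highest in KO 1 on normalized CPM (18 on CPM). Eef1a1, an elongation factor, had 1467 and 2066 CPM in WT and 4265 and 1789 in KO. Eef2, which moves the ribosome along, had 1421 and 1948 CPM in WT and 1915 and 1334 in KO, and Rack1, a ribosomal scaffold, 1140 and 1191 in WT and 1390 and 622 in KO. Without KO 1, 15 of the 20 genes were lower, and without KO 2, 6 passed the threshold as higher, against 9.72% of all genes in that fit. The snoRNAs themselves could not be followed: 8 of 9 snoRNA genes inside Gas5 and 4 of 4 inside Snhg12 had rows in the tables, and all had 0 counts in the 4 libraries. Their exonic overlap with some host isoforms covered 17.8% of the merged exons of Gas5 and 19.6% of those of Snhg12, where a read could be ambiguous.

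The mRNAs of proteins that share a compartment with Malat1 and Neat1 were mostly higher in KO, none past the threshold. No protein was measured, and the protein names below stand for their mRNAs. Of 18 paraspeckle proteins, 15 were higher and 0 passed, with a median log2 fold change of 0.53. Of all 11837 genes tested, 6227 were higher. On normalized CPM 11 of the 18 were highest in KO 1 (15 on CPM), against 34.1% (44.8%) of all genes tested. Groups without overlap and with KO higher were found on normalized CPM for 5 of the 18, against 25.3% of all genes tested. Hnrnpk, an RNA-binding protein and the highest of the list, had 304 and 504 CPM in WT and 909 and 717 in KO (log2 fold change 0.69), and Ewsr1, of the FET family, had 244 and 285 in WT and 331 and 364 in KO (0.07). Nono, a core paraspeckle protein, had 97.6 and 145.5 CPM in WT and 245 and 223 in KO (0.62). Sfpq, its partner, had 82.4 and 114 CPM in WT and 297 and 52.4 in KO, which is the order of Gas5 rather than that of Neat1. Of 17 nuclear speckle and SR proteins, 14 were higher and 0 passed, with a median of 0.50, and 13 were highest in KO 1 on normalized CPM (15 on CPM). Srsf2, an SR splicing factor, had 251 and 364 CPM in WT and 523 and 301 in KO. Of the same family, Srsf3 had 193 and 300.4 CPM in WT and 513 and 250.2 in KO, and Srsf7 had 149 and 188 in WT and 352 and 229 in KO. KO 1 had the highest CPM for all 3. Without KO 1, 9 of 18 paraspeckle proteins and 10 of 17 speckle proteins were higher, and without KO 2, 2 and 3 of them passed the threshold, against 9.72% of all genes in that fit.

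Of 10 tested genes around Malat1 and Neat1, 4 were higher and 6 lower, 0 passed (4 as lower without KO 2, against the same 9.72% of all genes), and 0 were highest in KO 1 on normalized CPM (1 on CPM). Without KO 1, 7 were higher and 3 lower, and the median log2 fold change moved from -0.18 to 0.13. Frmd8, a neighboring protein-coding gene, had 54.0 and 65.5 CPM in WT and 51.1 and 113 in KO. Ehbp1l1 had 184 and 197 CPM in WT and 86.2 and 204 in KO. Map3k11, a kinase gene, had 96.1 and 121 CPM in WT and 49.8 and 137 in KO. The lowest library of Ehbp1l1 and Map3k11 was KO 1, as for Neat1. Of 12 other nuclear or chromatin-bound long noncoding RNAs in the tables, 5 were tested, and 1 passed as lower in KO. That gene was Xist, the RNA that coats the inactive X chromosome, with 435 and 216 counts in WT and 0 and 3 in KO (adjusted p = 0.0172). Xist is made by cells with more than 1 X chromosome, and a difference in the sex of the animals between the groups, which no label gives, cannot be told apart from the label in any comparison here. Tug1 had 75 and 59 counts in WT and 189 and 169 in KO (log2 fold change 0.82, adjusted p = 0.481). Its groups did not overlap, which was found with KO higher for 25.3% of all genes tested. Peg13, an imprinted RNA, had 22 and 28 counts in WT and 16 and 27 in KO (log2 fold change -0.80, adjusted p = 0.66).

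Levels can be compared between the members only per length. On merged exons, the mean over the 4 libraries was 46.9 ± 11.4 (SD, n = 4) RPKM (CPM divided by the length in kilobases) for Malat1, 13.4 ± 13.7 for Gas5, 1.90 ± 1.80 for Snhg12, 1.49 ± 0.409 for Neat1 and 0.0660 ± 0.0667 for Kcnq1ot1. Snhg12 and Neat1 did not differ beyond their spread, and Gas5 in KO 1, at 33.8 RPKM, came close to Malat1 in WT 2, at 35.6 RPKM. The order changed with the length used: per main transcript, Gas5 came first at 100.5 ± 102 RPKM (SD, n = 4), and Neat1, counted per short form, had 10.3 ± 2.83 RPKM against 4.88 ± 4.63 for Snhg12. The mean of Gas5 rested on KO 1, at 253 RPKM against 40.7 to 62.6 in the other libraries. In KO 2, Gas5 at 40.7 RPKM was below Malat1 at 59.2 RPKM. Kcnq1ot1 was the lowest in every library by either length.

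The description as abundant fitted Malat1 and not Kcnq1ot1 or Snhg12. By mean CPM among the 12413 annotated long noncoding genes, Malat1 ranked 8, Gas5 67, Neat1 102, Kcnq1ot1 410 and Snhg12 501. Per kilobase of merged exon, Malat1 ranked 62 among all of them and 7 among the 5205 of type lincRNA. The 5 members held 1.13% and 1.20% of the long noncoding counts in WT and 2.41% and 1.63% in KO, and all long noncoding genes held 2.27% to 3.04% of the gene counts. Above Malat1 by CPM were mainly genes annotated antisense to others, and 6 of the 10 highest ranks were of the antisense type.

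Malat1 itself contained such a gene. Gm37376, a gene model of unproven type with 453 bases, lies wholly within the Malat1 exon on the opposite strand at chr19:5801941-5802393 and covers 6.49% of it. It had 668 and 704 counts in WT and 1171 and 1684 in KO, which is 0.609 and 0.665 counts per Malat1 count in WT and 0.697 and 0.757 in KO. These ratios take no account of length, which was 453 bases for Gm37376 and 6983 for Malat1. Per base, the counts were thus denser on Gm37376 than on Malat1 in every library. The log2 fold change was 0.46 (adjusted p = 0.673), and that of both rows summed was 0.34 (adjusted p = 0.781). The strand setting of the counting was not given in the sources used here. Counting that ignores strand would, in the default mode of HTSeq, call a read inside both genes ambiguous and give it to neither. The mode was not given either, and whether the counting used strand was not tested. The tables held 1.03 to 1.09 reads outside features per gene read. Whether the libraries kept the strand of the RNA is not stated, and if they did not, reads from Malat1 and from Gm37376 cannot be told apart. Among unspliced genes of at least 200 bases that lie inside an exon of a gene with at least 400 counts, 12 of 25 on the opposite strand and 0 of 11 on the same strand had at least 10 counts. In the default mode, a read inside both genes of a same-strand pair is ambiguous with or without strand. The 0 of 11 was thus fixed in advance in that mode.

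**Figure D5:**
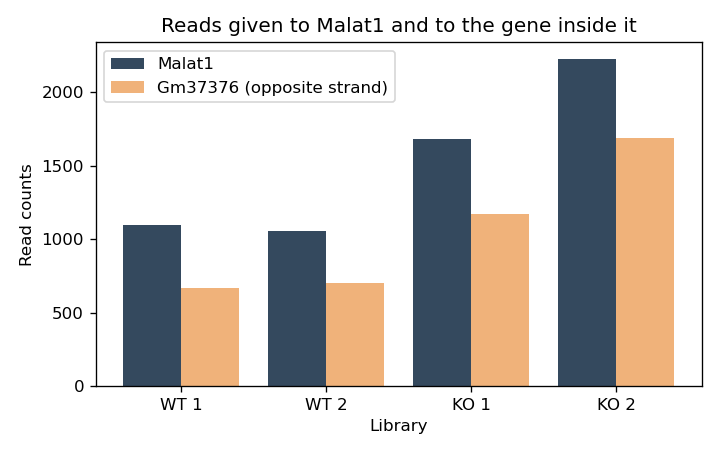
Bars show the read counts given to Malat1 and to Gm37376, the gene annotated inside its exon on the opposite strand, in each of the 4 libraries. The ratio of Gm37376 to Malat1 was 0.609 to 0.757.

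The genes with the most similar profiles were sought for each member, by the root mean square distance between centered log2 normalized CPM over the 4 libraries, among 6223 tested genes (6224 for Kcnq1ot1 and Snhg12) with a mean of at least 20 normalized CPM. With only 4 libraries such matches are a description. For Malat1 the nearest were Ythdf1, Taf5l and Hdgf (distance 0.0153 to 0.0386), and 618 genes lay within 0.25. For Neat1 they were Gm9754, Scaf1 and Ift172 (0.00947 to 0.0269), with 591 genes within 0.25. The profile of Kcnq1ot1 was nearest to that of Kmt2e (0.0727), with 84 genes within 0.25. Cetn3, Usp34 and Hnrnpa3 were nearest to Gas5 (0.0772 to 0.0966), and mt-Rnr2, Nufip2 and Cd24a to Snhg12 (0.0858 to 0.133), with 24 and 22 genes within 0.25. Profiles like those of Gas5 and Snhg12 were thus less common than profiles like that of Malat1.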

How the data were processed

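Each library had its own table of raw counts, which the authors deposited without scaling. Per the labels they were made with HISAT2 2.1.0 and HTSeq 0.11.0 on mm10. The annotation and the strand setting were not given in the sources used here. Summary rows without a gene were dropped, which held reads outside genes (22.3% to 29.5% of all reads) and reads not aligned (30.3% to 44.2%).

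The tests used edgeR 4.0.16 under R 4.3.3, with filterByExpr (at least 10 counts after scaling, 15 in total), TMM factors, and the quasi-likelihood F test of KO against WT over all 4 libraries, two-sided, with Benjamini-Hochberg adjustment over 11837 genes and a threshold of 0.05. The SE is the fold change divided by the square root of F. CPM used gene totals and normalized CPM used TMM-scaled totals. A level of 3 counts was 0.521 to 0.897 normalized CPM. Intervals of ratios are exact binomial and cover counting error only. The fit was tested on simulated data.

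Alternatives were other scaling, other filters, DESeq2 1.42.0, a replicate block and each library left out. Counts over lists on CPM were added after seeing the data. Positions came from GENCODE M21, and promoters from RefSeq. Plots used matplotlib 3.10.9 under Python 3.11.15. Named were the members, Satb1, the 3 genes of each list with the highest CPM (for cell type markers the sums stand in their place), up to 5 list genes past the threshold by smallest p, genes overlapping a member and the 3 nearest profiles (some genes that this rule names are not reported here), and other genes were named after their values were seen. The members and lists were chosen with earlier results of these data known. The 2 libraries of each group differed beyond counting noise (chi-square per degree of freedom 27.2 in WT and 85.1 in KO).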

Additional observations from a re-analysis of the deposited data

How the results depend on the processing

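The 5 members kept their direction and stayed short of the threshold in 44 of 44 values under other scaling factors, filters, DESeq2 and the blocks, where Kcnq1ot1 and Snhg12 were not tested under a filter of 5 CPM in 2 libraries. With a library left out, 17 of 20 values did so. The log2 fold changes then ranged from 0.06 to 0.39 for Malat1, -1.31 to -0.53 for Neat1, 0.30 to 2.1 for Kcnq1ot1, -0.66 to 1.80 for Gas5 and -1.24 to 1.45 for Snhg12. Gas5 and Snhg12 reversed without KO 1 (-0.66 and -1.24), and Gas5 passed the threshold without KO 2 (1.80, adjusted p = 0.0169). The median of the 12 host genes ranged from -0.99 to 1.38 and reversed without KO 1 (-0.99). The difference of nuclear-retained and host transcripts ranged from -1.29 to 0.80 and reversed without KO 1 (0.80). The number of genes past the threshold was 68, and it was 136 with library totals and no factors, 583 with no filter, 127 with the filter of 5 CPM and 416 with DESeq2. It ranged from 113 to 1249 with a library left out (113 without WT 1, 228 without WT 2, 123 without KO 1 and 1249 without KO 2). The cause was not tested. With a replicate block it was 215, with 0 members, but no label says whether the numbers pair the libraries. The deviations of libraries with the same number correlated at -0.167. This value rests on a single difference in each group and cannot decide whether they pair. With the pairing crossed, an alternative added after seeing the data, 647 genes and 0 members passed. Summing Malat1 and Gm37376 was also added after seeing the data. Depth limits Snhg12 and Kcnq1ot1 most, with 8 to 14 counts in some libraries.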

Other observations

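Nonsense-mediated decay removes spliced host transcripts such as Gas5, and 13 genes of its factors were tested. Of these, 6 were higher and 7 lower in KO, and 0 passed the threshold, with a median log2 fold change of -0.03. Without WT 1, 9 were higher and 5 lower (median 0.23), and without KO 2, 1 of 14 passed, which was Upf2, where 9.72% of all genes did. Upf1, the helicase at the center of the pathway, had 213 and 218 counts in WT and 272 and 366 in KO (log2 fold change -0.03, adjusted p = 0.985). The widest value was that of Upf2, its partner, with 3 and 11 counts in WT and 105 and 33 in KO (log2 fold change 2.78, adjusted p = 0.234), and it was highest in KO 1, as Gas5 was. Eif4a3, a core protein of the exon junction complex, had 710 and 757 counts in WT and 863 and 1210 in KO. Of its partners in that complex, Rbm8a had 610 and 747 counts in WT and 1071 and 693 in KO, and Magoh had 182 and 196 in WT and 601 and 175 in KO.

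Immediate early and heat shock genes, which respond within minutes to handling or signals, gave another order of the libraries. Their 11 genes summed to 6662 and 6606 CPM in WT and 6191 and 13654 CPM in KO, so that KO 2 was the highest, and 2 genes of the 11, Fosb and Ier2, had their highest CPM in KO 1. All 11 were higher in KO, 0 passed the threshold and 0 had groups that did not overlap on normalized CPM (5 on CPM, where 35.9% of all genes tested did so with KO higher), but without KO 2, 3 were higher and 8 lower, and the median log2 fold change was -0.54 in place of 0.25. Dusp1, a phosphatase that ends MAP kinase signals, had 7267 and 6166 counts in WT and 3992 and 23239 in KO. Junb and Fos, subunits of the factor AP-1, had 5361 and 7227 (Junb) and 4595 and 5505 counts (Fos) in WT, and 8018 and 16155 (Junb) and 4230 and 11223 (Fos) in KO. The library with the highest level of these genes was thus the one with the highest Malat1 and the lowest Gas5 and Snhg12 per gene read, and whether these go together was not tested.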
